A study of Gallus gallus with 58 samples.

Results

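Blood of chicks injected with CpG-ODN 2007 on the day of hatch was compared with blood of control chicks 6 days later (D6). The comparison rests on the 22 arrays whose labels give the time point D6, of 58 arrays in all: 10 from chicks labelled CpG and 12 from chicks labelled CTL. Each array was made from the whole blood of 1 chick (Gallus gallus). CpG-ODN 2007 is a short synthetic DNA that the series' design text describes as an agonist of chicken TLR21. The sources used here do not say what the CTL chicks were injected with, at which dose, or of which breed and sex the chicks were. The other 36 arrays came from different chicks bled 3 h or 3 days (D3) after the injection. They share the estimate of the spread and are used below only where the effect at D6 is set against the effect at those times.

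Unmethylated CpG motifs are common in bacterial DNA, and in birds TLR21 senses them in the place of mammalian TLR9. Signalling from such receptors leads to cytokines and type I interferon, and interferon in turn switches on a large set of antiviral genes. Chicken blood differs from mammalian blood in that red cells and thrombocytes keep their nuclei and contribute RNA, and the heterophil takes the place of the neutrophil. The values are from bulk blood, in which fewer cells of a type and less RNA per cell cannot be told apart.

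The array gave log2 expression values for 20804 probe sets, of which 12300 carried exactly 1 gene symbol and stood for 11528 genes. Array medians at D6 lay between 6.64 and 6.76. The labelled tissue was borne out by its red cell genes: the mean level of 27 erythroid genes was 11.22 to 11.41 in the controls. Probe sets for TLR21, MYD88 and IL10 with that symbol alone were not found, so these genes are not analysed here. The array of CpG chick 31 stood apart. Its median correlation with the rest of its group was 0.942, where the next lowest CpG array had 0.968, and its erythroid mean was 10.85, where the other CpG chicks had 11.22 to 11.42. The W-linked gene HINTW had intermediate levels in control chick 100 (8.05) and CpG chick 28 (7.40), while the remaining D6 arrays had at most 6.31 or at least 10.70. Below, calls that ended without these 3 arrays are named with the counts that remained. This alternative was chosen after the data were seen, and 41 of the 96 calls among named genes ended so. When only the D6 arrays were fitted, 12 of the 96 calls ended. Of these NR4A3 alone is identified below, and the others are given without that limit beside them.

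In the CpG chicks 317 probe sets were higher (1.52% of those tested) and 123 lower (0.591%) than in controls (limma, adjusted p under 0.05), together 440 probe sets or 2.11%. Among genes with 1 symbol 303 were called (2.63%), of which 238 were higher (2.06% of genes) and 65 lower (0.564%). The counts of calls in gene lists below are to be read beside these shares of all genes. At an unadjusted p under 0.05 (limma) there were 2878 of 20804 probe sets, both directions together. Counts of list members at that unadjusted threshold are to be read beside this number, whose split by direction is not given here. The lists were chosen with earlier results of these data known, so a larger share in a list is no separate test. A difference above 0, called or not, was found in 45.9% of all genes. A 2-fold difference was reached by 27 genes among the rises and by 3 among the falls. Rises and falls, here and below, are differences from the D6 controls and not changes with age. The median log2 difference was 0.56 over the genes called higher and -0.47 over those called lower, against -0.01 over all genes. Without the array of CpG chick 28 the count fell to 272 probe sets, and without the 3 doubtful arrays to 209 (146 higher and 63 lower). For 153 of the 303 called genes no single array ended the call, whereas leaving out CpG chick 28 ended 115 calls and leaving out CpG chick 31 ended 88.

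**Figure D1:**
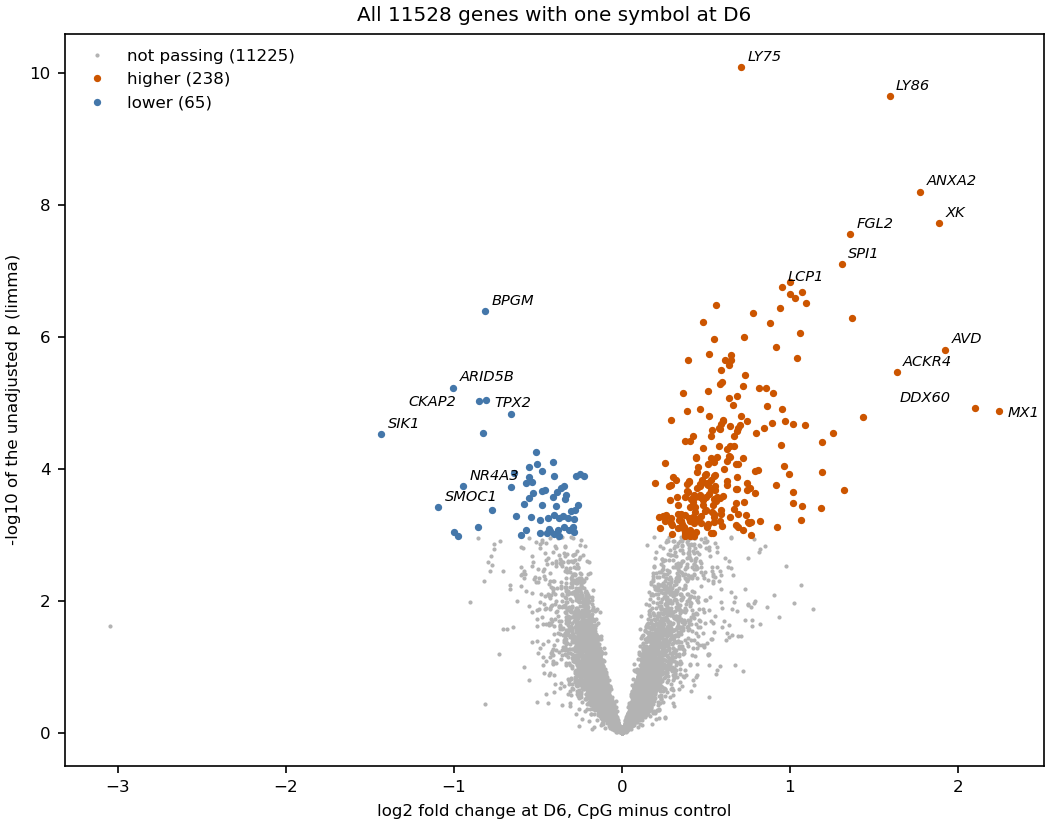
Log2 fold change at D6 (CpG minus control, x axis) against the unadjusted limma p on a -log10 scale (y axis) for 11528 genes. Genes called higher (238) are orange and genes called lower (65) are blue; the isolated grey point at the far left is SLC7A7, which did not pass.

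The interferon-induced genes had the highest median of the 45 gene lists described here, 0.72 on the log2 scale over 31 measured genes. They held the 2 largest rises of the called genes named here. MX1, an antiviral GTPase (probe set 15392223), lay between 6.04 and 9.93 in controls with a median of 7.52, and between 9.19 and 10.92 in CpG chicks with a median of 10.11. The 2 groups overlapped, because control chicks 99 and 102 (9.93 and 9.82) reached the range of the CpG chicks. The rise was 2.25 ± 0.47 (log2 fold change, SE; adjusted p = 0.00383), or 4.75-fold, with 6 of 10 CpG chicks above all 12 controls.

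DDX60, a helicase that takes part in antiviral RNA sensing (probe set 15508840), was split within the CpG group. It lay between 5.46 and 7.00 in the controls. Among CpG chicks it reached 10.68 in chick 27 and 10.52 in chick 28, and lay between 8.03 and 9.17 in chicks 25, 29, 33 and 35. In CpG chicks 26, 31, 32 and 34 it was 6.41 to 6.88, inside the control range. Its mean rise was 2.10 ± 0.44 (adjusted p = 0.00377), and the SD was 1.63 in CpG chicks (n = 10) against 0.47 in controls (n = 12).

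Of the 31 measured interferon-induced genes 4 rose and 0 fell, a share of 12.9% against 2.06% called higher among all genes. IRF1, which switches on interferon-stimulated genes, rose by 0.81 ± 0.19 (adjusted p = 0.0133). ADAR, an RNA-editing enzyme with an interferon-induced form, rose by 0.41 ± 0.12 (adjusted p = 0.0442), a call that leaving out any 1 of 13 arrays ended, with adjusted p up to 0.0957. The other 27 genes did not pass, although 30 of the 31 had a difference above 0 and 26 were higher at an unadjusted p under 0.05. IRF7, a transcription factor that drives interferon genes, differed by 0.65 ± 0.21 (adjusted p = 0.0898), and passed when only D6 arrays were fitted (adjusted p = 0.0176). RSAD2 and EPSTI1, chosen after their values were seen, differed by 1.14 and 1.06 (adjusted p = 0.19 and 0.126). The mean level of the list was 8.87 to 10.11 in controls and 9.83 to 10.77 in CpG chicks, with 7 of 10 CpG chicks above all controls. With the 3 doubtful arrays left out the median was 0.60 and 3 genes passed, ADAR (adjusted p = 0.147) no longer among them.

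Class I antigen presentation genes load peptides of the cell's own proteins onto class I molecules for display to T cells. Of 9 measured members 3 rose and all 9 had a difference above 0, with a median of 0.35. B2M, the class I light chain, reached 12.42 in the highest control and lay between 12.50 and 12.82 in 9 of the CpG chicks, while CpG chick 31 lay below every control. Its rise was 0.39 ± 0.08 (adjusted p = 0.00389). TAP2, a subunit of the peptide transporter, rose by 0.61 ± 0.12 (adjusted p = 0.0012). BF2, a chicken class I heavy chain, rose by 0.68 ± 0.18 (adjusted p = 0.0249), and that call ended without control chick 98 or 105 or CpG chick 28 or 35, with adjusted p up to 0.0636. Class I genes are a polymorphic family with close copies, so how far a BF2 probe set measures other copies was not tested. Without the 3 doubtful arrays these 3 genes and the 2 class II genes that follow all passed.

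Of 8 measured class II presentation genes 2 rose. CTSS, a protease that trims the invariant chain, was above all 12 controls in all 10 CpG chicks: 7.46 to 7.96 in controls and 8.07 to 8.78 in CpG chicks, a rise of 0.73 ± 0.13 (adjusted p = 0.000734). CD74, the invariant chain itself, rose by 0.77 ± 0.21 (adjusted p = 0.0364), and the call was lost without any 1 of 10 arrays (adjusted p up to 0.0988).

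**Figure D2:**
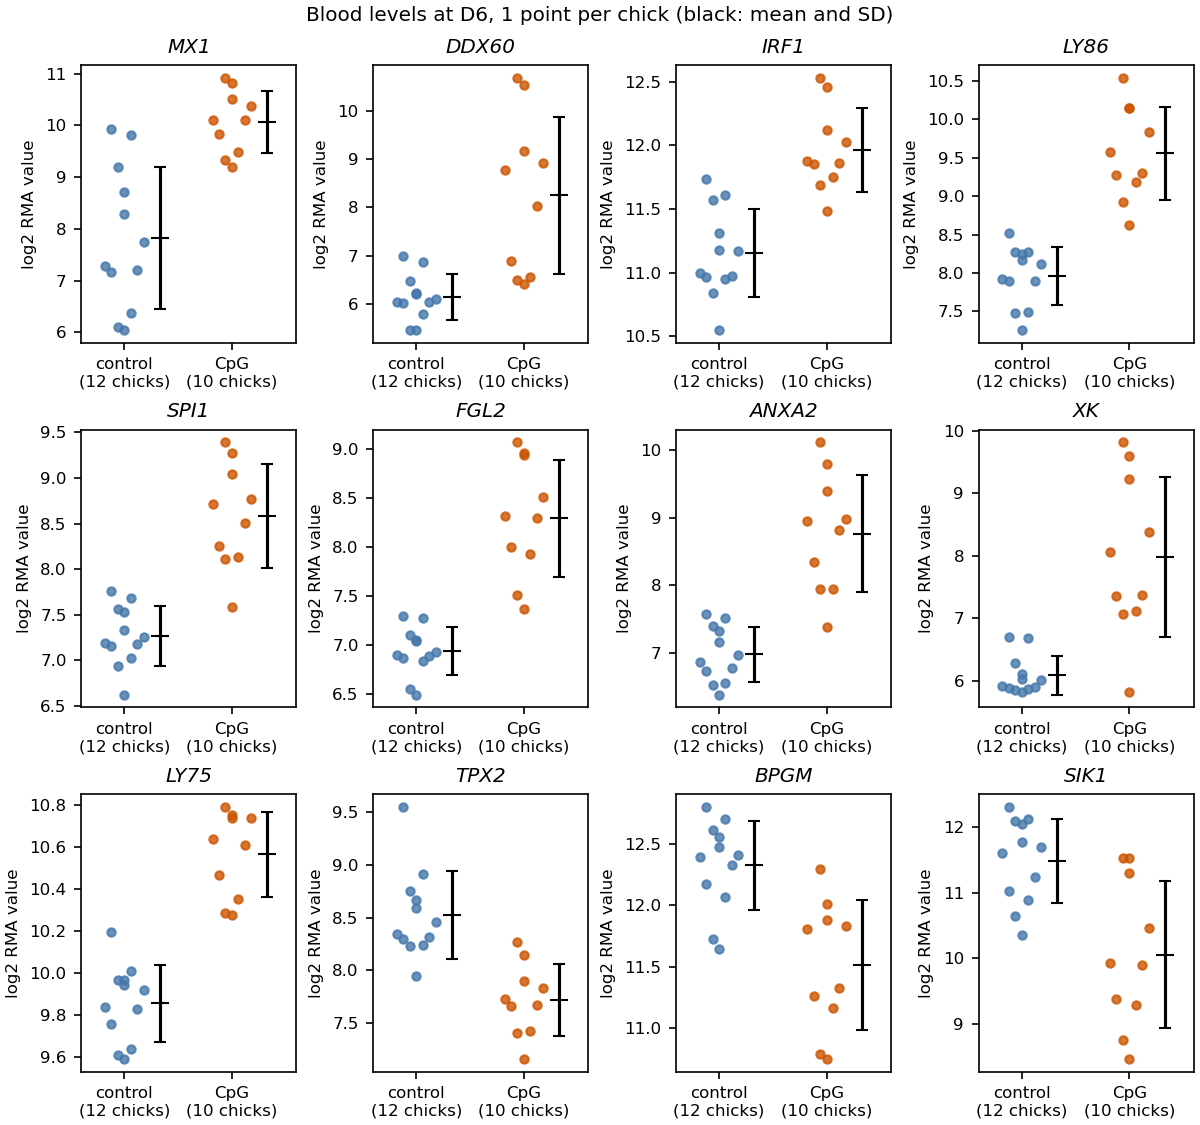
Log2 RMA values (y axis) of 12 genes at D6 in 12 control chicks (blue) and 10 CpG chicks (orange), 1 point per chick, with the mean and SD in black. LY86, FGL2 and LY75 did not overlap between the groups, DDX60 was split within the CpG group, and one CpG chick lay at the control level in XK.

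Among 12 measured monocyte and macrophage genes 3 rose (25%, against 2.06% called higher among all genes). LY86, also called MD-1, the partner of a leukocyte receptor related to the Toll-like receptors (probe set 15459944), was 7.26 to 8.52 in controls with a median of 8.02, and 8.62 to 10.54 in CpG chicks with a median of 9.44. All 10 CpG chicks lay above all 12 controls. The rise was 1.59 ± 0.21 (adjusted p = 1.54e-06), or 3.02-fold. SPI1, the transcription factor PU.1 of myeloid cells, was 6.62 to 7.76 in controls and 7.59 to 9.39 in CpG chicks, with 9 of 10 above all controls. It rose by 1.31 ± 0.21 (adjusted p = 0.000235). TREM2, a receptor of macrophages, rose by 0.58 ± 0.13 (adjusted p = 0.0052).

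The median of the 12 genes was 0.16. The other 9 members did not pass, among them CTSB at 0.13, C1QC at 0.19, MARCO at -0.08 and MRC1 at -0.20, which were chosen after their values were seen. The mean level of the list was 6.53 to 6.90 in controls and 6.78 to 7.25 in CpG chicks. When the 3 doubtful arrays were left out, the TREM2 call ended (adjusted p = 0.0746). Among 8 dendritic cell genes, LY75, an endocytic receptor also known as DEC-205, had the smallest p at D6 of the genes named here. Its control values ran from 9.59 to 10.19 and its CpG values from 10.28 to 10.79, without overlap, and it rose by 0.71 ± 0.09 (adjusted p = 8.33e-07). The other 7 did not pass. The median of the list was 0.16, and 0.62 over only the genes that remained with the lowest 40% of probe sets left out.

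FGL2, a fibrinogen-like protein made by leukocytes, was 6.49 to 7.29 in controls and 7.37 to 9.07 in CpG chicks, again with no overlap. It rose by 1.36 ± 0.21 (adjusted p = 9.61e-05). LBP, which carries lipopolysaccharide to its receptor, went from 7.14 to 7.87 in controls to 7.99 to 9.48 in CpG chicks and rose by 1.10 ± 0.19 (adjusted p = 0.000393). AVD encodes avidin, a biotin-binding protein known from egg white and from inflamed chicken tissue. It lay between 7.20 and 8.90 in controls and between 8.42 and 12.13 in CpG chicks, a rise of 1.93 ± 0.36 (adjusted p = 0.00104) with 7 of 10 CpG chicks above all controls. AVR2, a close relative of AVD, rose by 1.18 ± 0.31 (adjusted p = 0.0276), a call ended by leaving out control chick 102 or CpG chick 26, 28 or 31 (adjusted p up to 0.0721), or all 3 doubtful arrays (adjusted p = 0.102). Whether the probe sets of these near-identical genes cross-hybridise was not tested. FGL2, LBP and AVD were the 3 calls among 11 secreted inflammation-linked genes, and all 3 passed without the 3 doubtful arrays. The median of that list was -0.03. With the lowest 40% of probe sets left out it was 1.23, over only the genes that remained, which does not describe the whole list.

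In all, 24 genes (0.208%) had every CpG chick above every control and 0 genes (0.00%) had every CpG chick below. The former included 9 of the 108 genes named here: LY75, LY86, FGL2, LCP1, ALOX5AP, LBP, CTSS, TLR7 and ACOD1.

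Toll-like receptors and their partners rose in 4 of 10 measured cases (40%, against 2.06% called higher among all genes). All 10 had differences above 0, with a median of 0.52. TLR7, which senses single-stranded RNA, was 5.30 to 6.43 in controls and 6.44 to 7.90 in CpG chicks, and rose by 0.92 ± 0.17 (adjusted p = 0.000991). TLR4, the receptor for lipopolysaccharide, rose by 0.68 ± 0.16 (adjusted p = 0.0116). LY96, its co-receptor MD-2, rose by 1.06 ± 0.29 (adjusted p = 0.035). In LY96 CpG chick 31 was far above its group at 9.72, and the call ended without that chick, without control chick 106, or without CpG chick 27, 28 or 34 (adjusted p up to 0.1). The call of TLR1B, a receptor for lipoproteins (0.77 ± 0.22, adjusted p = 0.0496), was lost without any 1 of 15 arrays (adjusted p up to 0.125). With the 3 doubtful arrays left out TLR7 alone passed. Of 18 measured adaptors and kinases downstream of these receptors 0 passed, with a median of 0.13, and 5 were higher at an unadjusted p under 0.05.

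The signalling genes of phagocyte receptors were the list with the largest share of calls: 8 of 18 rose (44.4%) and 0 fell, with a median of 0.45. PTPN6, the phosphatase SHP-1, rose by 0.95 ± 0.20 (adjusted p = 0.00378), from 7.02 to 7.74 in controls to 7.71 to 8.96 in CpG chicks. LAPTM5, a lysosomal membrane protein of leukocytes, rose by 0.72 ± 0.17, the kinase LYN by 0.65 ± 0.15 and LCP2, the adaptor SLP-76, by 0.63 ± 0.14 (adjusted p = 0.0101, 0.0101 and 0.00814). PTPRC, the leukocyte phosphatase CD45, rose by 0.59 ± 0.11 (adjusted p = 0.00155) with 9 of 10 CpG chicks above all controls. Without the 3 doubtful arrays 2 members of the list passed and the median was 0.35; the calls of LAPTM5, LYN and LCP2 were among those that ended (adjusted p = 0.0697, 0.126 and 0.0966).

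Of 29 measured actin and motility genes 9 rose (31.0%), with a median of 0.23. LCP1, the leukocyte actin-bundling protein L-plastin, did not overlap between groups: 7.28 to 7.80 in controls and 7.87 to 9.12 in CpG chicks. It rose by 0.95 ± 0.16 (adjusted p = 0.000364). The Arp2/3 subunits ARPC5 and ACTR2 rose by 0.60 ± 0.12 and 0.53 ± 0.12 (adjusted p = 0.00218 and 0.0101), EVL, which promotes filament growth, by 0.46 ± 0.11 and the GTPase RHOA by 0.29 ± 0.06 (adjusted p = 0.0126 and 0.00461). With the 3 doubtful arrays left out 4 of the list passed, and the ACTR2 call ended (adjusted p = 0.0759).

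Annexins, which bind membranes in the presence of calcium, gave some of the largest rises. ANXA2 (probe set 15409712) was 6.39 to 7.58 in controls with a median of 6.93, and 7.38 to 10.11 in CpG chicks with a median of 8.88. CpG chick 31, at 7.38, was the only CpG chick inside the control range. The rise was 1.78 ± 0.26 (adjusted p = 3.25e-05). ANXA1, an inhibitor of inflammatory lipid release, rose by 1.43 ± 0.30 (adjusted p = 0.00425), and ANXA5 by 1.06 ± 0.19 (adjusted p = 0.000668). With S100A12 these were the 4 calls among 12 annexin and S100 genes, a list with a median of 0.08. With the lowest 40% of probe sets left out it was 1.02, over only the genes that remained, which does not describe the whole list. Without the 3 doubtful arrays the 3 annexins passed.

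Heterophil genes were measured by granule proteins and by oxidase and surface proteins. All 10 granule genes had differences above 0, with a median of 0.54, the second highest of the lists, and 7 were higher at an unadjusted p under 0.05. Of them 1 rose: S100A12, a calgranulin, by 1.02 ± 0.26 (adjusted p = 0.0199), a call that ended without CpG chick 28 or 31 (adjusted p up to 0.0611). AvBD7, a beta-defensin, differed by 1.03 ± 0.39 (adjusted p = 0.169) and LECT2, a leukocyte chemotactic factor, by 0.75 ± 0.29 (adjusted p = 0.173). Their spread was wide: AvBD7 was 5.46 to 7.42 in controls, while in CpG chicks it reached 9.77 in chick 26 and was 5.91 in chick 32. LECT2 was also highest in CpG chicks 26 and 25, at 9.53 and 8.40. The granule list's mean level was 6.29 to 7.08 in controls and 6.40 to 8.21 in CpG chicks. When the 3 doubtful arrays were left out, 0 of the 10 passed, and the median was 0.49.

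Of 8 oxidase and surface genes 3 rose. ITGB2, the beta-2 integrin chain CD18, rose by 0.86 ± 0.17 (adjusted p = 0.00237), and NCF4, a subunit of the phagocyte oxidase, by 0.60 ± 0.13 (adjusted p = 0.00465). CSF3R, the G-CSF receptor of granulocytes, rose by 0.76 ± 0.19 (adjusted p = 0.0186), and the call ended without CpG chick 28 (adjusted p = 0.0555). The mean level of these 8 genes was 7.63 to 7.92 in controls and 7.82 to 8.50 in CpG chicks. Without the 3 doubtful arrays ITGB2 and NCF4 passed and CSF3R did not (adjusted p = 0.146). The 2 highest oxidase and surface means were those of CpG chicks 31 and 26, at 8.50 each. What part cell composition had in the rises was not tested.

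Among 20 measured cytokines and chemokines 2 rose. IL15, which sustains natural killer and T cells, was 6.01 to 8.27 in controls; in CpG chicks it was 7.46 to 9.73 except in chick 31, where it was 5.67, below every control. The rise was 1.26 ± 0.28 (adjusted p = 0.00561). IL18, an inducer of interferon gamma, rose by 0.64 ± 0.13 (adjusted p = 0.00297). The classical acute cytokines did not pass: IL1B differed by -0.22 ± 0.08 (adjusted p = 0.141) and IL6 by -0.05 ± 0.09 (adjusted p = 0.861). The interferon gamma gene IFNG differed by 0.15 ± 0.10 (adjusted p = 0.553). The chemokines IL8L1 and IL8L2 differed by 0.03 ± 0.08 and 0.13 ± 0.11 (adjusted p = 0.941 and 0.684). Values of IFNG (2.62 to 3.77 over both groups), IL6, IL8L1 and IL8L2 lay under 6.26, the level below which 40% of the probe set means fall. Whether they were detected is not known from the table.

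Cytokine receptors rose in 3 of 21 cases: CSF2RA, the receptor chain for GM-CSF, by 0.79 ± 0.20 (adjusted p = 0.02), CSF3R as above, and IL4R by 0.33 ± 0.08 (adjusted p = 0.0216). The CSF2RA call ended without CpG chick 28 (adjusted p = 0.0528) and that of IL4R without control chick 106 or CpG chick 34 (adjusted p up to 0.0582). With the 3 doubtful arrays left out 0 of the 21 passed. ACKR4, a receptor that scavenges chemokines, was the 1 call among 13 chemokine receptors. It was 4.91 to 6.92 in controls and 5.75 to 8.94 in CpG chicks, and rose by 1.64 ± 0.32 (adjusted p = 0.00163) with 6 of 10 CpG chicks above all controls.

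Among 17 JAK-STAT and SOCS genes 3 rose. SOCS1, an inhibitor of JAK kinases, rose by 1.07 ± 0.28 (adjusted p = 0.0263), with 10.23 in CpG chick 31, 7.55 to 8.42 in the other CpG chicks and 6.68 to 8.01 in controls. The call ended without CpG chick 28 or 31, and without chick 31 the difference was 0.83. STAT3, a transcription factor activated by cytokine receptors, rose by 0.50 ± 0.13 (adjusted p = 0.0285), which was lost without control chick 103 or CpG chick 28 or 31 (adjusted p up to 0.0854). The third call was PTPN6, given above, and it alone of the 3 passed without the 3 doubtful arrays. NFKBIA, the inhibitor of NF-kB, differed by 0.16 ± 0.14 (adjusted p = 0.703), and 0 of 10 NF-kB and feedback genes passed, with 3 higher at an unadjusted p under 0.05.

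**Figure D3:**
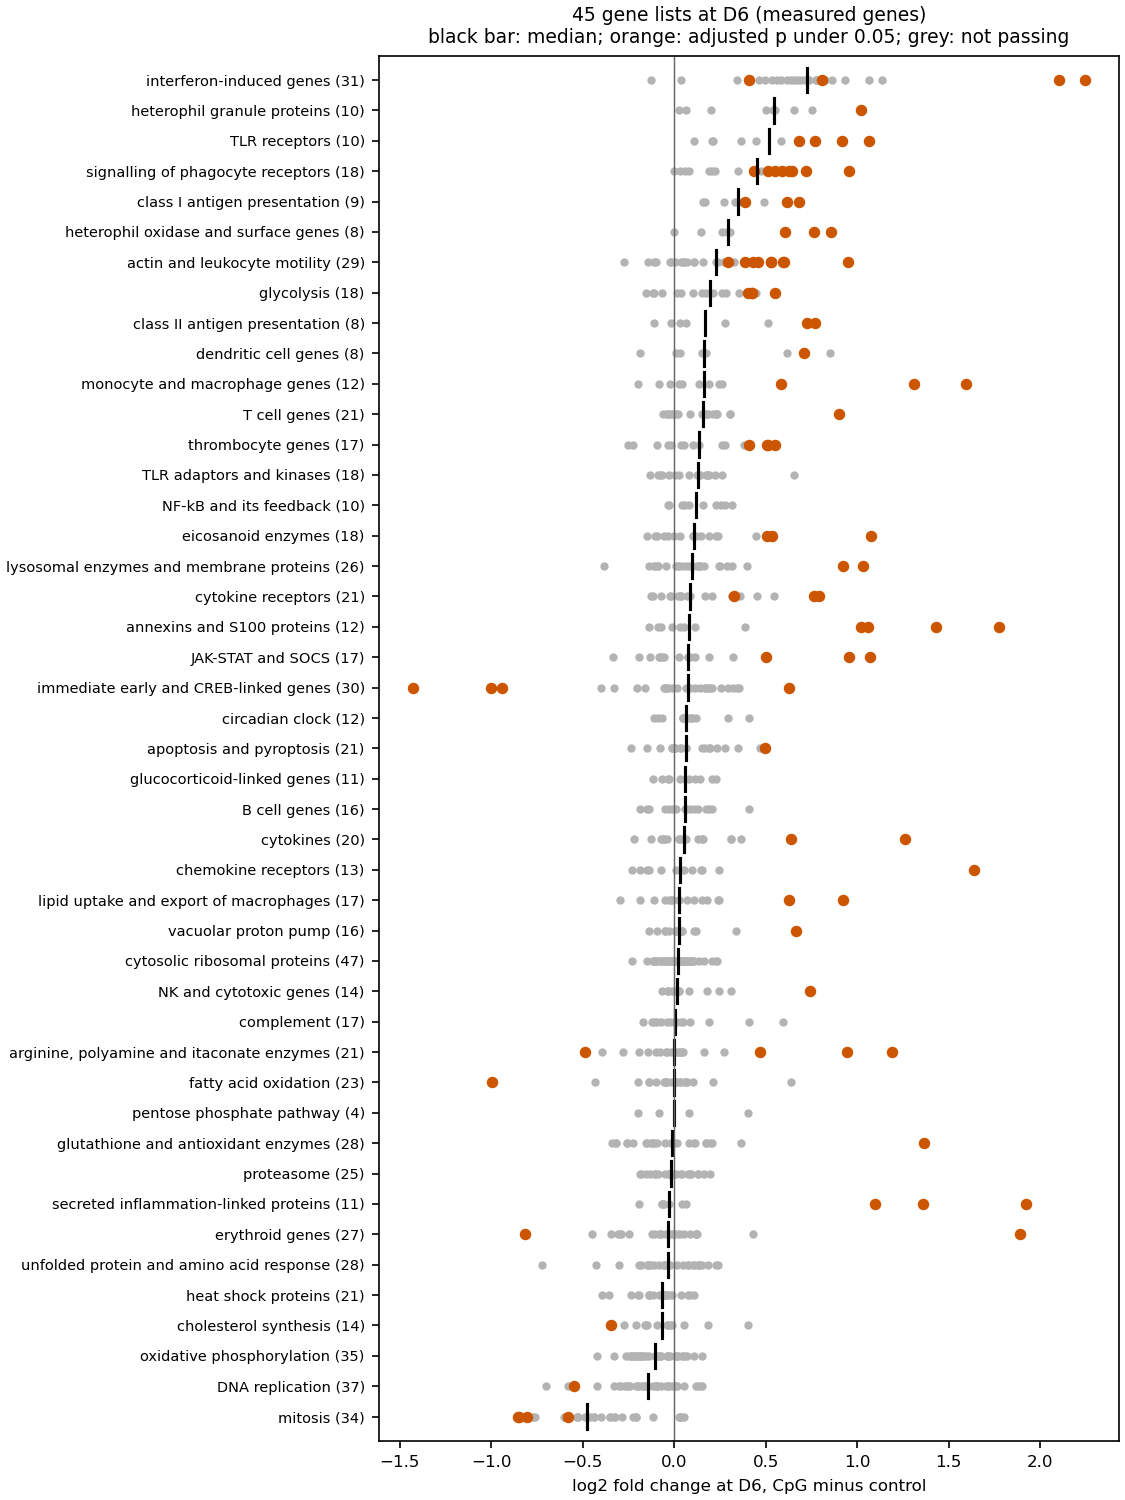
Log2 fold change at D6 (CpG minus control, x axis) of each measured gene in 45 lists (y axis, ordered by median). Orange points passed the test, grey points did not, and black bars are list medians, from 0.72 for the interferon-induced genes to -0.47 for the mitosis genes.

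Among 21 arginine, polyamine and itaconate enzymes 3 rose and 1 fell. ACOD1, which makes itaconate in activated macrophages, was 5.92 to 6.46 in controls and 6.63 to 8.60 in CpG chicks, and rose by 1.19 ± 0.29 (adjusted p = 0.0136). The groups did not overlap, but without the 3 doubtful arrays the call ended (0.94, adjusted p = 0.119). ASS1 and ASL, the enzymes that make arginine from citrulline, rose by 0.94 ± 0.16 and 0.47 ± 0.12 (adjusted p = 0.000421 and 0.0208); the ASL call ended without CpG chick 26 (adjusted p = 0.0508). NOS2, the inducible nitric oxide synthase that uses arginine, differed by -0.10 ± 0.11 (adjusted p = 0.775). ODC, ornithine decarboxylase, fell by 0.49 ± 0.14 (adjusted p = 0.0473), a call lost without any 1 of 15 arrays (adjusted p up to 0.122). ASS1 and ASL passed without the 3 doubtful arrays, and ODC did not (adjusted p = 0.146).

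ALOX5AP, which presents arachidonic acid to 5-lipoxygenase, did not overlap between groups: 6.44 to 7.70 in controls and 7.77 to 8.88 in CpG chicks, a rise of 1.07 ± 0.18 (adjusted p = 0.000387). LTA4H, the next step towards leukotriene B4, rose by 0.54 ± 0.12 (adjusted p = 0.00531) and TBXAS1, thromboxane synthase, by 0.51 ± 0.13 (adjusted p = 0.0176). These were the 3 calls among 18 eicosanoid genes, and ALOX5AP alone passed without the 3 doubtful arrays (LTA4H and TBXAS1, adjusted p = 0.073 and 0.109). MGST1, a microsomal glutathione transferase, rose by 1.37 ± 0.24 (adjusted p = 0.000495). It was the 1 call among 28 glutathione and antioxidant genes (3.57%, against 2.06% called higher among all genes).

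Of 18 glycolysis genes 4 rose, with a median of 0.19. LDHA, lactate dehydrogenase A, rose by 0.55 ± 0.10 (adjusted p = 0.000755), hexokinase HK1 by 0.43 ± 0.09 (adjusted p = 0.00588) and the phosphofructokinase PFKP by 0.40 ± 0.09 (adjusted p = 0.00683). PFKFB4, a regulator of that step, rose by 0.43 ± 0.11 (adjusted p = 0.0239), lost without control chick 107 or CpG chick 26 or 28 (adjusted p up to 0.0645), and without the 3 doubtful arrays (adjusted p = 0.147), when the other 3 passed. Of 35 nuclear genes for oxidative phosphorylation 0 passed, with a median of -0.11 and 7 lower at an unadjusted p under 0.05. That median was -0.03 without the 3 doubtful arrays, when 1 gene of the list passed as higher and 0 as lower. ND6, a complex I subunit encoded by mitochondrial DNA, fell by 0.83 ± 0.18 (adjusted p = 0.00561).

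Lysosomal and lipid-handling genes gave a few calls. CTSC, a protease that activates granule proteases, rose by 1.03 ± 0.18 (adjusted p = 0.000393), from 6.09 to 6.78 in controls to 6.54 to 8.36 in CpG chicks. LIPA, the lysosomal acid lipase, rose by 0.92 ± 0.26 (adjusted p = 0.0415), lost without any 1 of 14 arrays (adjusted p up to 0.0797). ABCG1, a cholesterol exporter, rose by 0.63 ± 0.15 (adjusted p = 0.0164). ATP6V0D2, a proton pump subunit, rose by 0.67 ± 0.18 (adjusted p = 0.028), a call ended by leaving out control chick 105 or CpG chick 26 or 28 (adjusted p up to 0.0705). LSS, lanosterol synthase, fell by 0.34 ± 0.09 (adjusted p = 0.0179), the 1 call among 14 cholesterol synthesis genes. Of these 5 genes CTSC alone passed without the 3 doubtful arrays, the others having adjusted p of 0.147 (LIPA), 0.129 (ABCG1), 0.073 (ATP6V0D2) and 0.0716 (LSS).

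Thrombocyte genes rose in 4 of 17 cases, with a median of 0.13. That median was 0.32 over only the genes that remained with the lowest 40% of probe sets left out. GP9, a subunit of the von Willebrand factor receptor, rose by 0.55 ± 0.14 (adjusted p = 0.0221). SELP, the adhesion molecule P-selectin, rose by 0.51 ± 0.12 (adjusted p = 0.0116), TBXAS1 as above, and PLEK, pleckstrin, by 0.41 ± 0.11 (adjusted p = 0.0221). The GP9 call ended without control chick 106 or CpG chick 28, 31 or 34, and the PLEK call without control chick 106 or CpG chick 28 (adjusted p up to 0.0588 and 0.0608). With the 3 doubtful arrays left out 0 of the 17 passed, while the median was 0.22.

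Of 21 T cell genes 1 passed (4.76%, against 2.06% called higher among all genes), CD44, an adhesion receptor that many leukocytes carry, which rose by 0.90 ± 0.18 (adjusted p = 0.00261). Of 14 genes of natural killer and cytotoxic cells 1 passed (7.14%), CD7, a surface protein of T and natural killer cells, at 0.74 ± 0.16 (adjusted p = 0.00465). Of 16 B cell genes 0 passed, with a median of 0.06 and 1 gene each way at an unadjusted p under 0.05.

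Outside the lists, FN1, which encodes fibronectin, rose by 1.19 ± 0.27 (adjusted p = 0.00686), from 8.37 to 9.85 in controls to 9.70 to 11.62 in CpG chicks. SERPINB10B, a serpin, rose by 1.09 ± 0.24 (adjusted p = 0.00503), and TPPP, which promotes tubulin polymerisation, by 1.33 ± 0.33 (adjusted p = 0.0189), lost without CpG chick 28 (adjusted p = 0.0556). With the 3 doubtful arrays left out the SERPINB10B call ended (adjusted p = 0.0864). APAF1, the apoptosome scaffold, rose by 0.50 ± 0.12 (adjusted p = 0.0146) as the 1 call among 21 apoptosis and pyroptosis genes, and did not pass without the 3 arrays (adjusted p = 0.0925).

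The erythroid list held 1 gene in each direction among 27, with a median of -0.03. XK, a membrane protein that pairs with the Kell antigen on human red cells (probe set 15404615), was 5.83 to 6.71 in controls. In CpG chicks it was highest in chicks 27, 28 and 29 (9.82, 9.60 and 9.22), 7.07 to 8.38 in 6 others, and 5.82 in chick 31, just below the lowest control. The rise was 1.89 ± 0.29 (adjusted p = 7.69e-05), and the SD was 1.28 in CpG chicks (n = 10) against 0.31 in controls (n = 12). BPGM, which makes the red cell effector bisphosphoglycerate, was 11.65 to 12.80 in controls and 10.75 to 12.30 in CpG chicks, and fell by 0.81 ± 0.14 (adjusted p = 0.00044) with 5 of 10 CpG chicks below all controls. The remaining 25 genes, globins and haem enzymes among them, did not pass.

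**Figure D4:**
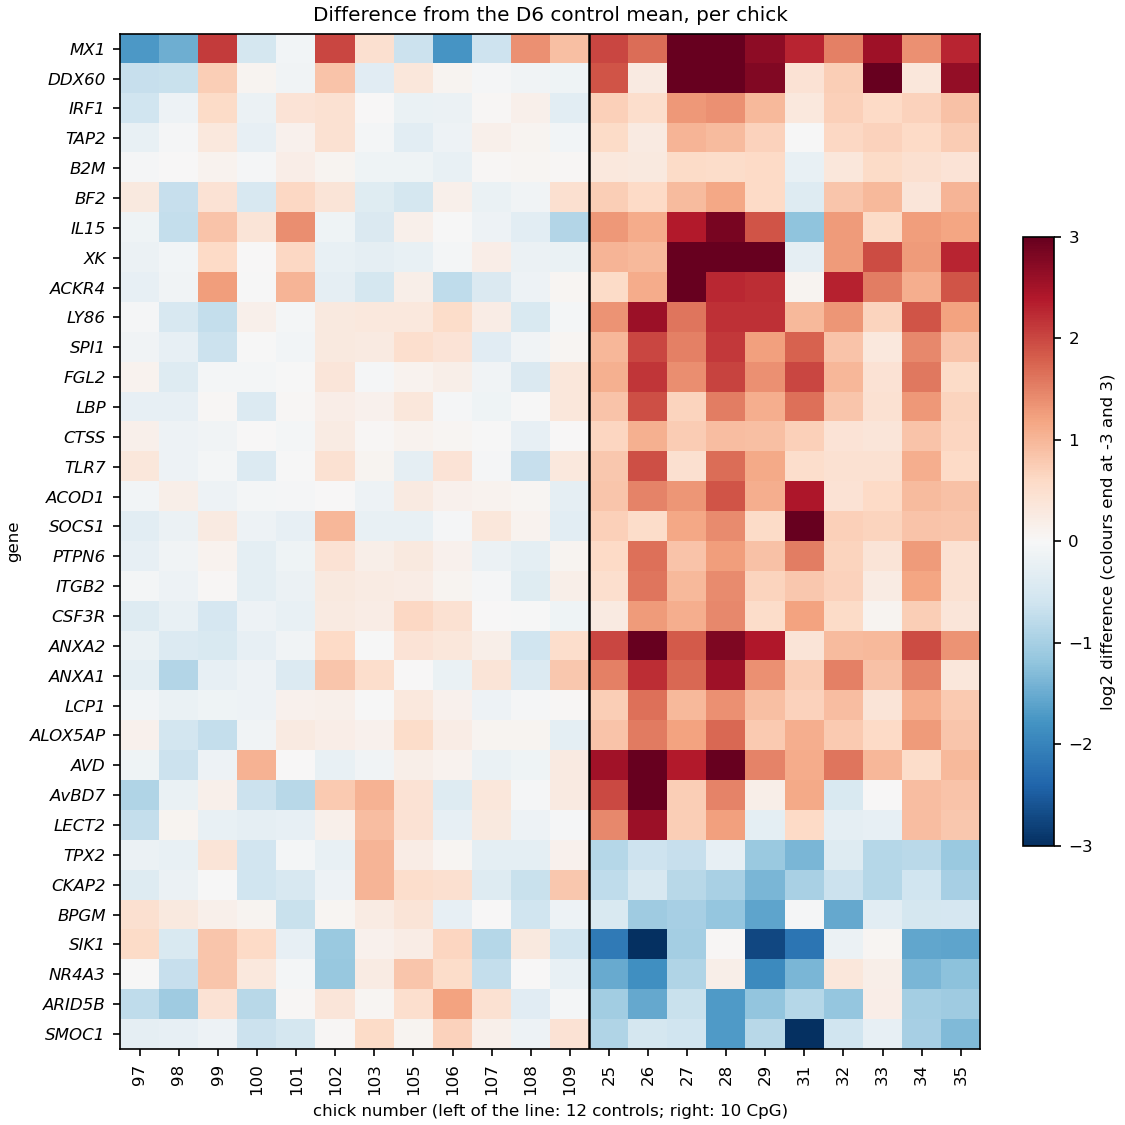
Difference of each D6 chick from the control mean (colour, log2 scale) for 34 genes (y axis) in 12 control and 10 CpG chicks (x axis, chick numbers). DDX60 and XK were highest in CpG chicks 27, 28 and 29 or 33, whereas LY86, ANXA2 and AvBD7 were highest in chick 26.

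CpG chicks did not order alike across these groups of genes. Of the 71 named genes that rose, chick 26 had the highest value of the 10 in 26 genes, chick 31 in 17 and chick 28 in 16. Chick 33 had the lowest value in 19 genes and chick 31 in 16. Chick 28 did not exceed all controls in 2 of the 71 genes, and chick 33 in 39. For the interferon list the mean level was lowest in chicks 34 (9.83) and 26 (9.86), although chick 26 had the highest granule mean (8.21). The ratio of the SD in CpG chicks to that in controls had a median of 1.41 over the genes called higher, against 1.17 over all genes. These orders describe 10 chicks and carry no test.

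Mitosis genes had the lowest median of the 45 lists, -0.47 over 34 measured genes, of which 4 fell and 0 rose, a share of 11.8% against 0.564% called lower among all genes. In all 30 were below 0, and 27 were lower at an unadjusted p under 0.05. TPX2, a spindle assembly factor (probe set 15465512), was 7.94 to 9.55 in controls with a median of 8.41, and 7.16 to 8.27 in CpG chicks with a median of 7.70. In it 8 of 10 CpG chicks lay below all controls, and it fell by 0.81 ± 0.17 (adjusted p = 0.0031).

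CKAP2, a microtubule-binding protein of the spindle, fell by 0.85 ± 0.17 (adjusted p = 0.00318), with 7 of 10 CpG chicks below all controls. NUSAP1, a spindle protein, fell by 0.85 ± 0.24 (adjusted p = 0.0412), lost without any 1 of 11 arrays, and KIF4B, a kinesin, fell by 0.58 ± 0.15 (adjusted p = 0.0253), lost without control chick 103 or 105 or CpG chick 28 (adjusted p up to 0.0945 and 0.0658). CDK1 and TOP2A, chosen after their values were seen, differed by -0.77 and -0.79 (adjusted p = 0.0854 and 0.0958). The list's mean level was 6.46 to 7.85 in controls and 6.33 to 6.81 in CpG chicks, and 4 of 10 CpG chicks lay below all controls. Control chick 103 was the highest at 7.85. Without the 3 doubtful arrays the median was -0.48 and 2 genes passed, TPX2 and CKAP2.

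Other cell division genes among the largest falls were NEK2, a centrosome kinase (-0.77 ± 0.21), MASTL, a kinase of mitotic entry (-0.64 ± 0.15), CEP55, which acts in the last step of cell separation (-0.57 ± 0.14), and PRR11 (-0.55 ± 0.13), with adjusted p of 0.0286, 0.0139, 0.017 and 0.0151. The NEK2 call was lost without any 1 of 6 arrays (adjusted p up to 0.0669). ERCC6L, a helicase of mitotic chromosomes, fell by 0.41 ± 0.10 (adjusted p = 0.0111). HIST1H2A4L1, a histone H2A gene, fell by 0.60 ± 0.17 (adjusted p = 0.0495), lost without any 1 of 16 arrays (adjusted p up to 0.106). Of 37 DNA replication genes 1 fell, CDC45, a part of the replicative helicase, by 0.55 ± 0.14 (adjusted p = 0.0218), which ended without control chick 103 or CpG chick 31 (adjusted p up to 0.0668). That list had a median of -0.15. When the 3 doubtful arrays were left out, NEK2, HIST1H2A4L1 and CDC45 did not pass (adjusted p = 0.0957, 0.126 and 0.102).

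Among 30 immediate early and CREB-linked genes 3 fell and 1 rose, while the median was 0.07. The rise was that of KLF6, a zinc finger transcription factor, by 0.63 ± 0.15 (adjusted p = 0.011), and it ended without the 3 doubtful arrays (adjusted p = 0.135), when the 3 falls passed. SIK1, a kinase induced by cAMP, was 10.36 to 12.31 in controls. It was 8.46 to 9.93 in 6 CpG chicks, below all controls. In CpG chick 27 (10.46) and in chicks 28, 32 and 33 (11.30 to 11.53) it was inside the control range. It fell by 1.43 ± 0.31 (adjusted p = 0.00574), the largest called fall. NR4A3, an orphan nuclear receptor, fell by 0.94 ± 0.24 (adjusted p = 0.0177), a call that was lost when only D6 arrays were fitted (adjusted p = 0.0827). ARID5B, a DNA-binding cofactor, fell by 1.00 ± 0.20 (adjusted p = 0.00237). FOS, JUN and EGR1, the best known members and chosen after their values were seen, differed by 0.34, 0.26 and -0.33 (adjusted p = 0.503, 0.439 and 0.201).

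SMOC1, a secreted matrix protein, fell by 1.09 ± 0.29 (adjusted p = 0.0267). It was 7.48 in CpG chick 31 and 8.96 to 10.40 in the other CpG chicks, against 10.01 to 11.34 in controls, and the call ended without control chick 106 or CpG chick 28 or 31 (adjusted p up to 0.0815). ACSS1A, a mitochondrial acetyl-CoA synthetase, and PLS1, an actin-bundling protein, fell by 1.00 ± 0.28 and 0.97 ± 0.28 (adjusted p = 0.0468 and 0.0496), each lost without any 1 of 16 arrays (adjusted p up to 0.0964 and 0.124). MRPL37, a mitochondrial ribosomal protein, fell by 0.66 ± 0.14 (adjusted p = 0.00415), RASSF6 by 0.66 ± 0.16 (adjusted p = 0.0182) and TMEM121L by 0.63 ± 0.17 (adjusted p = 0.0324), the last lost without any 1 of 10 arrays (adjusted p up to 0.0801). Without the 3 doubtful arrays SMOC1, ACSS1A, PLS1 and RASSF6 did not pass (adjusted p = 0.153, 0.0934, 0.244 and 0.0805).

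Several lists held no call. With 2.63% of all genes called, a list of their size would hold few calls or 0, so this does not set them apart. Of 17 complement, 47 cytosolic ribosomal protein, 25 proteasome, 21 heat shock, 28 unfolded protein response, 12 circadian clock, 11 glucocorticoid-linked and 4 pentose phosphate genes 0 passed. Their medians lay between -0.07 (heat shock) and 0.06 (circadian clock). At an unadjusted p under 0.05 these lists held 0 to 3 genes in either direction.

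The last question was whether the effect at D6 differed from that at the earlier times, which were measured in other chicks. Against the effect at 3 h, 124 probe sets differed (0.596%), 115 with a higher (0.553%) and 9 with a lower effect at D6 (0.0433%). Of the 86 genes among them (0.746% of genes) 77 were also called at D6, against 2.63% of all genes. Both tests use the same D6 arrays, so this overlap is no separate result. At 3 h itself 0 probe sets passed (0.00%). The change was firmest in FGL2, 2.28 ± 0.30 (adjusted p = 1.06e-05), in which the effect was -0.93 ± 0.22 at 3 h and 1.36 ± 0.21 at D6. LY75 and LY86 changed by 0.84 ± 0.13 and 1.87 ± 0.30 (adjusted p = 0.000184 and 0.000389), LBP by 1.59 ± 0.27 and TREM2 by 1.01 ± 0.18 (adjusted p = 0.00148 and 0.00223). Without CpG chick 26 the count was 77 and without CpG chick 28 it was 61; without the 3 doubtful arrays it was 53.

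Control levels of these genes were not constant in age. The FGL2 mean in controls was 8.21 ± 0.50 (SD, n = 10) at 3 h, 7.86 ± 0.51 (n = 8) at D3 and 6.94 ± 0.24 (n = 12) at D6, while that of CpG chicks was 7.28 ± 0.71 (n = 10), 8.68 ± 0.37 (n = 8) and 8.29 ± 0.60 (n = 10). MGST1 was lower in D6 controls as well, at 6.08 ± 0.44 against 7.29 ± 0.45 in 3 h controls, and the CpG mean at D6 was 7.45 ± 0.57. PTPN6 had a D6 control mean of 7.32 ± 0.24, a 3 h control mean of 8.57 ± 0.54 and a D6 CpG mean of 8.27 ± 0.45. Other genes took other courses. In SIK1, called lower at D6, the control mean was 8.97 at 3 h and 11.48 at D6, and the CpG mean 8.95 and 10.06. In BPGM, also called lower, the control means were 12.71 and 12.32, and the CpG means 12.84 and 11.51. In MX1, called higher, they were 7.11 and 7.82 in controls, and 6.48 and 10.07 in CpG chicks.

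From D3 to D6 the effect changed in 0 probe sets (0.00%) by limma. At an unadjusted p under 0.05 there were 1201 of 20804 probe sets, against 2878 for the CpG effect at D6 itself. BPGM came nearest, with effects of 0.31 ± 0.17 at D3 and -0.81 ± 0.14 at D6, a change of -1.12 ± 0.22 (adjusted p = 0.0748). AvBD7 and LECT2 had effects of 2.35 ± 0.46 and 2.18 ± 0.33 at D3, and the changes to D6, -1.32 ± 0.60 and -1.43 ± 0.44, did not pass (adjusted p = 0.859 for both). At D3 65 probe sets were called (0.312%). Of the 303 genes called at D6, 18 were also called at D3, against 45 of all 11528 genes. Of the genes called higher at D6, 232 of 238 were above 0 at D3, and of those called lower 58 of 65 were below 0. The shares of all genes above and below 0 at D3 are not given here, so these counts carry no conclusion. Since the change itself passed in 0 probe sets, a call at one time and not the other does not show a difference between D3 and D6.

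**Figure D5:**
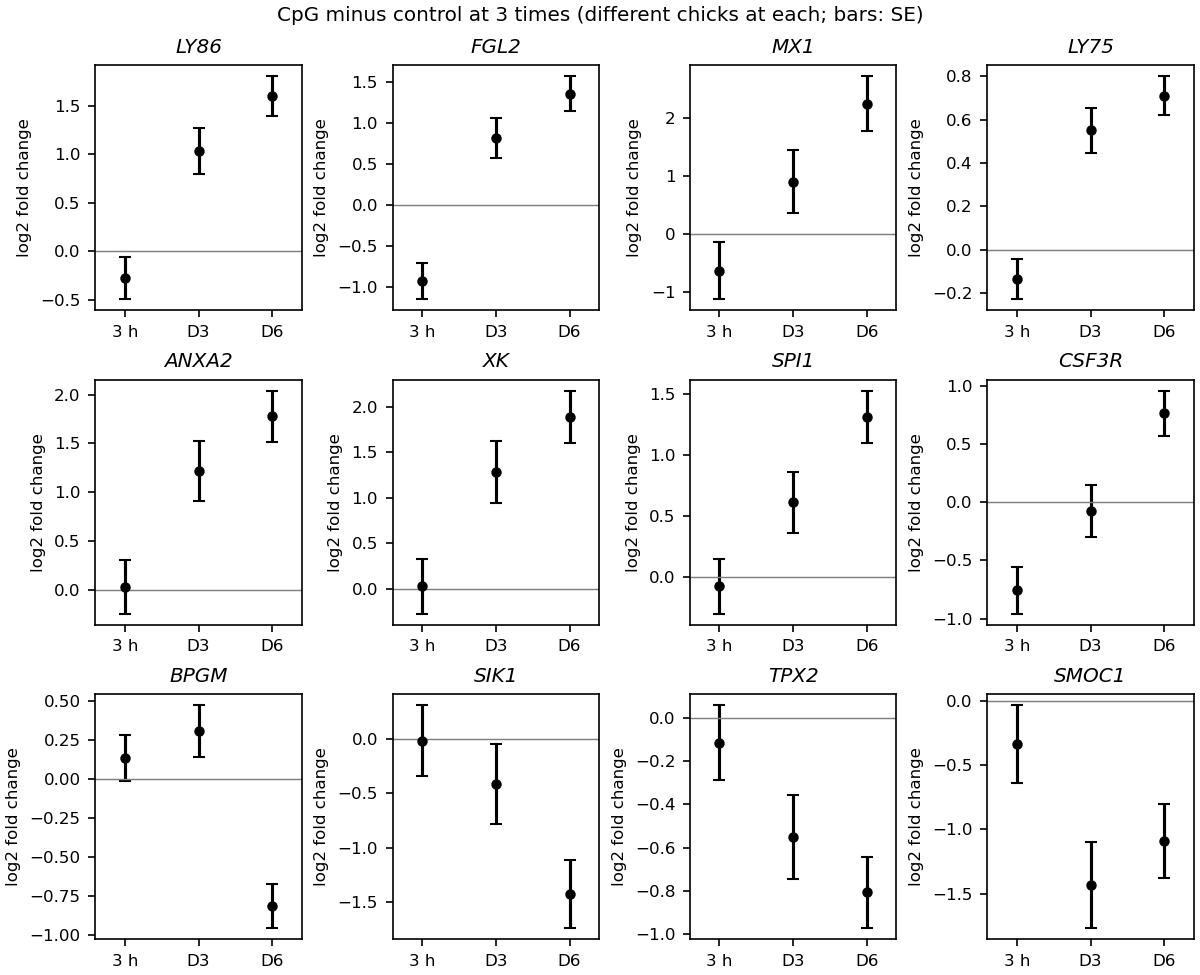
Log2 fold change (CpG minus control, y axis) of 12 genes at 3 h, D3 and D6 (x axis), with bars for the SE; different chicks were bled at each time. The effects of LY86, FGL2, MX1 and SPI1 were above 0 at D6 and at or below 0 at 3 h, and BPGM was above 0 at D3 and below 0 at D6.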

How the data were processed

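The authors deposited log2 expression values, 1 array per chick, and the submitters' processing notes name RMA, which puts all arrays on a common distribution and gives 1 value per probe set. The version, settings, detection calls and hybridisation batch are not stated there. Per the labels' protocols, PAXgene blood RNA was DNase-treated and labelled with the WT PLUS protocol. Values ran from 1.12 to 14.7 and were used as deposited. Symbols came from the platform annotation, with 11727 probe sets matched to RefSeq (GRCg7b, names only) by Entrez identifier; 256 probe sets with several symbols and 8248 with none stayed unnamed. For the 651 genes with several probe sets, the one with the highest mean stood for the gene, and disagreement between them was not described.

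limma 3.58.1 (R 4.3.3) fitted 1 mean per group of treatment and time to 58 arrays (52 residual and 4.17 prior degrees of freedom); p-values are two-sided, adjusted by Benjamini-Hochberg over 20804 probe sets, threshold 0.05. SE is the moderated standard error. Where the groups differ in spread, it can be larger or smaller than the D6 chicks alone would give. The steps were tested on simulated data with independent normal noise of equal spread in all groups. That test does not cover groups that differ in spread or hold outlying chicks. Nothing in the labels pairs chicks or says how they were housed. The p-values therefore set a difference only against the spread between chicks within groups, pooled over the 58 arrays.

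Named genes are the 20 largest rises and falls, up to 5 called genes per list, 5 each way per change of effect, and a fixed immune set. The members and lists were chosen with earlier results of these data known. Alternatives were fits of D6 arrays alone, a trended robust prior, array weights, other normalizations, filters, a W-linked covariate and each D6 array left out.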

Additional observations from a re-analysis of the deposited data

Results flagged for a closer look

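In 11 of the named genes CpG chick 31 lay farther from the other 9 CpG chicks than Dixon's critical value allows, which chance does for about 1 group in 20. All 11 are of that one chick. It was lowest in B2M (11.9952, next chick 12.50), BF2 (10.8025, next 11.55), CDC45 (5.5276, next 6.37), NOS2 (7.9863, next 8.73), ODC (9.9558, next 11.37) and SMOC1 (7.475, next 8.96). It was highest in SOCS1 (10.232, next 8.42), LY96 (9.7246, next 7.96), LCP2 (10.3838, next 9.70), STAT3 (11.5521, next 10.58) and IL6 (5.6631, next 5.26). The same array had the lowest correlation with its group and the lowest erythroid mean; the part of array quality or blood composition in these values was not tested.

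The CpG effect at D6 differed from that at 3 h, by the test of the difference itself (limma, adjusted p under 0.05), in 39 of the 108 named genes. Among all genes it differed in 86 (0.746%). Most named genes were chosen by their D6 values or by this change, so the count of 39 is not a separate result. The effect was higher at D6 by 2.8773 in MX1, 0.6909 in TAP2, 1.5467 in IL15 and 0.7878 in IL18. The change did not pass in the antiviral and antigen presentation genes DDX60, IRF1, ADAR, IRF7, B2M, BF2 and CD74 (adjusted p = 0.128, 0.395, 0.227, 0.136, 0.157, 0.215 and 0.132). It did pass in the class II presentation gene CTSS, given below. Among the genes that passed, the change was 1.2729 in TLR7, 0.971 in TLR4, 1.8703 in LY86, 2.283 in FGL2, 1.5938 in LBP and 1.0128 in TREM2. In LY75 it was 0.8447, in CSF3R 1.5199, in ITGB2 1.2028, in SELP 0.7106 and in FN1 2.0266. It was also 1.5228 in PTPN6, 1.1755 in LAPTM5, 0.8579 in LCP2, 0.6949 in PTPRC, 1.3821 in SPI1, 0.9384 in LCP1, 0.8501 in ACTR2, 1.7453 in ANXA2, 1.7712 in ANXA1 and 1.1392 in ANXA5. Further changes were 1.1969 in CTSC, 0.9535 in CTSS, 1.177 in ALOX5AP, 0.6658 in LTA4H, 1.4164 in MGST1, 0.991 in ASS1, 0.6891 in LDHA, 0.6531 in PFKFB4 and 1.8606 in XK. It was lower at D6 by -0.9468 in BPGM, -0.7498 in YBX1, -0.7648 in RTN4IP1, -0.5668 in ERCC6L and -0.6043 in SIAH2. Of these 5, YBX1 (-0.38 ± 0.11, adjusted p = 0.0509) and RTN4IP1 (-0.35 ± 0.14, adjusted p = 0.18) did not pass at D6 itself. SIAH2 fell there by 0.38 ± 0.11 (adjusted p = 0.0439), a call that leaving out any 1 of 13 arrays ended. The SIAH2 call also ended without the 3 doubtful arrays (adjusted p = 0.179).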

How the results depend on the processing

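No paired analysis was possible because the groups share no chick numbers. No named gene that passed at D6 was reversed under any alternative run. NOS2, which did not pass, went from -0.10 to 0.005 without the 3 doubtful arrays. The 440 probe sets called at D6 became 682 with array weights and 209 without the 3 doubtful arrays (chosen after the data were seen). When 1 D6 array was left out the count was 272 to 503, the lowest without CpG chick 28. With 1 probe set per gene 388 genes passed, where the main fit called 303 genes. The other alternatives gave 456 to 589. Among these, leaving out the lowest 40% of probe sets (497) or duplicate rows (462) tested fewer probe sets. Median centring gave 374 higher and 89 lower, against 317 and 123. For the change from 3 h to D6, 124 became 258 with array weights and 53 without the 3 arrays, with 61 to 181 when 1 array was left out; the cause was not tested. For the change from D3 to D6, 0 became 1 (lower) with array weights, with the lowest 40% of probe sets left out, with 1 probe set per gene and without the 3 arrays, and 0 to 1 when 1 array was left out. Of 96 named calls, 66 were ended by no single array and 41 ended without the 3 arrays. Fits of D6 arrays alone ended 12, of which NR4A3 alone is identified above, and gained 2 (IRF7, adjusted p = 0.0176, and RTN4IP1, adjusted p = 0.0467). The other calls so ended passed only with the 3 h and D3 arrays in the fit. YBX1 passed under 12 alternatives, 6 of them with 1 array left out, with adjusted p between 0.0198 and 0.0496. With the lowest 40% left out, fewer genes were measured, and the medians of the dendritic cell, annexin and S100, secreted and thrombocyte lists were 0.62, 1.02, 1.23 and 0.32. How many members remained in each list is not given here, so these medians do not describe the whole lists. No alternative shifted the median of all genes by over 0.1. Signal over background is unknown, so low genes cannot be said to be detected.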

Other observations

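SLC7A7, a cationic amino acid transporter subunit, chosen after its values were seen, had the largest difference of all 11528 genes at D6 and did not pass the test. Its controls ran from 5.99 to 12.96 with a median of 12.44, and the CpG chicks from 5.69 to 13.64 with a median of 6.35. The difference was -3.05 ± 1.32 (adjusted p = 0.257), and the SD was 2.46 in controls and 3.24 in CpG chicks.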
